A study of Mus musculus with 24 samples.

Results

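Microglia of Z165KO mice (KO here) were compared with microglia of wild-type mice (WT). The comparison used all 6 microglia libraries, 3 KO and 3 WT, of the 24 bulk RNA-seq libraries of the series, and 17880 of 55487 annotated genes passed the filter on low counts. Both groups were macrophages sorted from digested brain, with an input of 100000 cells per library. The labels do not describe the Z165KO allele and give no age, sex or sort gate. Nothing in them ties replicate numbers to separate animals, so a p-value here reflects the spread among these libraries alone, which may be technical. The series title concerns cMaf and its support of Zeb2 expression, and the other 18 libraries are alveolar macrophages, Kupffer cells and splenic macrophages of the same genotypes.

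Microglia are the resident macrophages of the brain parenchyma. They arise from yolk sac progenitors, maintain themselves with little input from blood, and hold their identity through colony-stimulating factor 1 receptor and TGF-beta signalling together with the transcription factor Sall1. They respond within minutes to tissue disruption with immediate early genes, which encode short-lived transcription factors and feedback regulators such as the phosphatase Dusp1, and stress to their proteins is met by cytosolic chaperones.

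No gene passed an adjusted p of 0.05 in edgeR's quasi-likelihood test with Benjamini-Hochberg adjustment over all 17880 genes (0% called). At an unadjusted p under 0.05 there were 794 genes, which is 4.44% of those tested, and DESeq2's Wald test called 58 genes higher and 35 lower in KO. All 93 of these had KO and WT libraries that did not overlap, and 49 of them stood under 5 CPM (counts scaled to the library total) in the higher genotype. The smallest adjusted p in the edgeR fit, 0.172, belonged to Dusp1. Without WT replicate 2, Dusp1 was the only gene called by edgeR among 18845 tested (0.00531% called), and 1088 had an unadjusted p under 0.05. DESeq2 without that library called 119 genes higher and 49 lower. Across all genes, the 3 KO libraries lay above the 3 WT libraries for 5.58% of genes and below them for 5.45%. Without WT replicate 2, which leaves fewer libraries to overlap, these shares were 11.4% and 9.57%. These shares are the background against which the counts of non-overlapping genes in each list are read.

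Each library held between 50449347 and 55249334 counts. WT replicate 2 stood apart from the other 5 libraries. It had 20646 genes with at least 10 counts, against 17220 to 18198 in the others. Mitochondrial transcripts took 0.317% of its counts (0.132% to 0.181% in the others) and rRNA genes 0.103% (0.0311% to 0.0434%). Its weight in a limma fit with library quality weights was 0.334, the lowest of the 6, where the others lay between 0.784 and 1.85. WT replicate 1 separated from the rest along the first principal component, which held 28% of the variance, and WT replicate 2 along the second, with 25.3%. The chi-square per degree of freedom was 158 and 147 between WT replicate 2 and WT replicates 1 and 3, and 32.7 to 53.7 between the other replicate pairs of each group, so none was one library deposited more than once. Without WT replicate 1, edgeR called 0 genes and 1262 had an unadjusted p under 0.05.

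**Figure D1:**
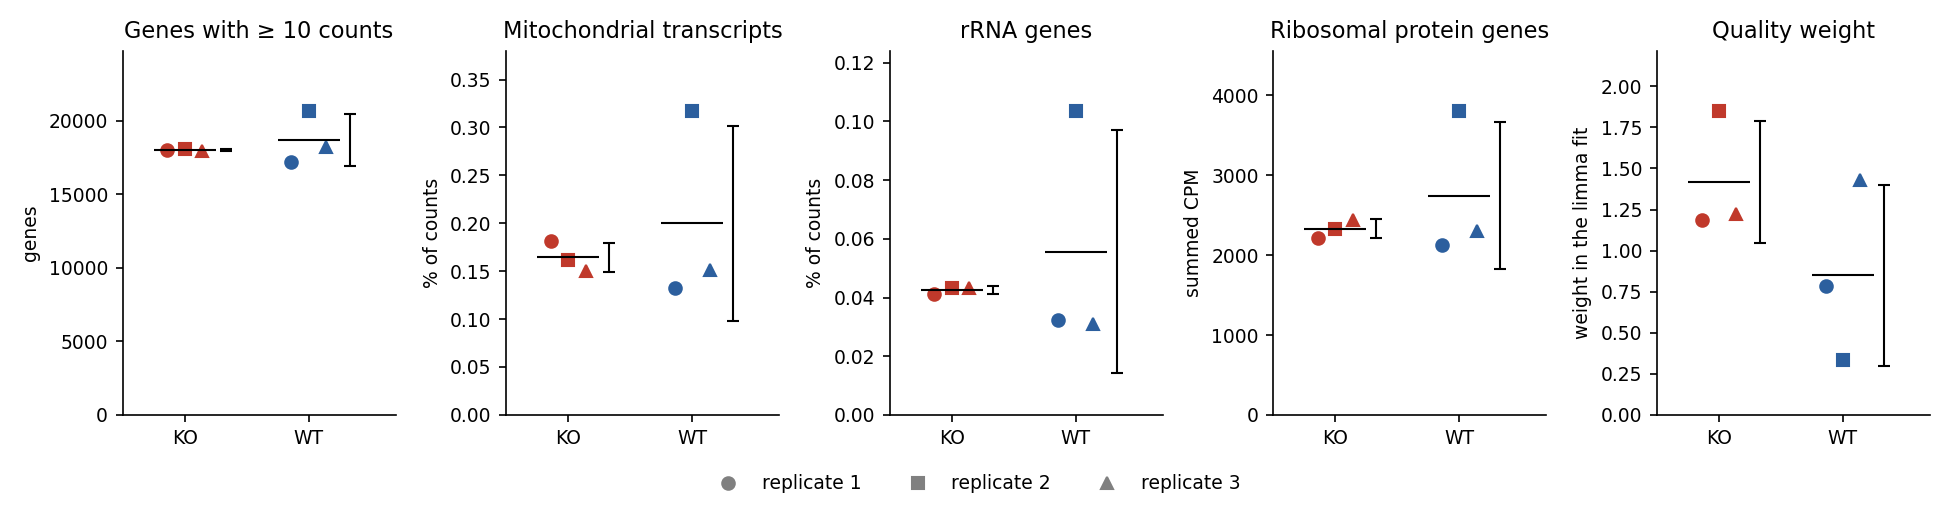
Properties of the 6 microglia libraries, KO at the left of each panel and WT at the right: genes with at least 10 counts (number), share of counts in mitochondrial and in rRNA genes (%), summed CPM of ribosomal protein genes, and the limma quality weight (no unit). Symbols are libraries, horizontal lines are group means and bars to the right are ± SD (n = 3). The square of WT replicate 2 is the highest point in the first 4 panels and the lowest in the last.

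Genes far from the other WT libraries in WT replicate 2 were of several kinds, and their values are given as a description with no test. Ttr, the thyroxine carrier secreted by choroid plexus, had 35.1, 51.5 and 31.6 CPM in the KO libraries, against 79.7, 3.61 and 37.0 CPM in WT. Kif3c, a kinesin motor subunit, had 10.8, 9.25 and 12.2 CPM in KO, against 9.49, 0.707 and 7.34 CPM in WT. In both genes the single low library was WT replicate 2. In the other direction, Lars2, the mitochondrial leucyl-tRNA synthetase, had 94.6, 95.5 and 101 CPM in KO libraries, against 90.8, 340.0 and 76.9 CPM in WT. The annotated gene Gm10800 had 9.05, 11.3 and 27.8 CPM in KO libraries, against 35.8, 226 and 32.8 CPM in WT.

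The libraries carried the label's cell type. Tmem119, a microglial membrane protein, had 5191, 4943 and 5364 CPM in the KO libraries, against 5578, 4768 and 4609 CPM in WT. P2ry12, the purinergic receptor of resting microglial processes, had 5096, 4679 and 4611 CPM in KO, against 4402, 5401 and 4775 CPM in WT. Sall1 had 477, 471 and 408 CPM in KO, against 467, 382 and 483 CPM in WT. The groups overlapped for all 3 markers. Their log2 fold changes were 0.05 ± 0.10 for Tmem119, −0.01 ± 0.09 for P2ry12 and 0.03 ± 0.14 for Sall1 (± SE; 95% intervals −0.18 to 0.29, −0.21 to 0.19 and −0.29 to 0.35).

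All 30 genes of a microglia identity list were tested. None was called, none had groups that did not overlap, and their log2 fold changes ran between −0.28 and 0.30 with a median of −0.02, against −0.01 over all genes. Cx3cr1, the fractalkine receptor, had 6334, 6613 and 6990 CPM in KO, against 6961, 5473 and 6522 CPM in WT. Csf1r, the receptor on which microglial survival depends, had 15596, 16863 and 17542 CPM in KO, against 16470, 11436 and 16373 CPM in WT. In both genes WT replicate 2 was the lowest of the 6 libraries. Xist was at or near 0 in all 6 libraries and the Y-linked gene Ddx3y lay between 61.7 and 107 CPM.

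Zeb2, the transcriptional repressor in the series title (mm10, chr2:44983632-45117395, minus strand), had 334, 249 and 263 CPM in KO microglia, against 329, 171 and 276 CPM in WT. Replicate 1 was the highest library of each group and the groups overlapped. The log2 fold change was 0.12 ± 0.25 (95% interval −0.45 to 0.70, adjusted p = 0.991 by edgeR), and it turned to −0.12 without WT replicate 2 and −0.01 without KO replicate 1. Length-scaled, Zeb2 averaged 46.0 ± 8.18 TPM (transcript abundance scaled for length and library total) in KO and 40.7 ± 15 TPM in WT (SD, n = 3 each). Its antisense gene Zeb2os had 14.7, 13 and 10.3 CPM in KO, against 14.4, 21.8 and 16.8 CPM in WT, with groups that overlapped (−0.47 ± 0.22 on the log2 scale, adjusted p = 0.987 by edgeR). Whether counting used strand is not stated, so reads of Zeb2 and Zeb2os may be mixed. Its paralog Zeb1 had 28.4, 24.2 and 28.1 CPM in KO, against 36.0, 31.7 and 27.3 CPM in WT. Maf, which encodes the transcription factor c-Maf, had 92.8, 90.0 and 74.0 CPM in KO, against 83.7, 120 and 90.6 CPM in WT (−0.19 ± 0.17, adjusted p = 0.987 by edgeR). Neither Zeb1 nor Maf had groups that were apart.

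Dusp1 had the smallest p of all genes. It encodes a nuclear phosphatase that switches off p38, JNK and ERK kinases and is induced with the immediate early genes. It had 2731, 2587 and 2538 CPM in the KO libraries, against 4692, 4383 and 4706 CPM in WT. Every KO library was below every WT library, and KO averaged 57.0% of WT. The log2 fold change was −0.81 ± 0.08 (95% interval −1.0 to −0.62). Without WT replicate 2, Dusp1 fell by 0.86 on the log2 scale in KO (± 0.05 SE, adjusted p = 0.0273 by edgeR). In length-scaled units it averaged 2606 ± 146 TPM in KO and 4358 ± 509 TPM in WT (SD, n = 3 each). Dusp1 was called lower by DESeq2 (adjusted p = 6.11e-09) and by limma with quality weights (adjusted p = 0.00916), and across all fits its adjusted p ranged between 1.96e-25 and 0.9998, the last with the replicate number as a block. The difference between the KO effect on Dusp1 in microglia and the mean effect in the other 3 types was −0.37 ± 0.38 on the log2 scale (adjusted p = 0.948 by edgeR). Side by side, Dusp1's log2 fold changes in the fit of all 24 libraries were −0.81 in microglia, −1.38 in alveolar macrophages, −0.39 in Kupffer cells and 0.45 in splenic macrophages.

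Proximal promoters are shown for 1 gene of each set described next that the RefSeq table held (Dusp1 for the immediate early genes, Bag3 for the chaperones, H1f2 for the histones), to give the sequence from which each transcript starts. Each runs from 250 bases before to 50 after the transcript start, 5′ to 3′ on the strand of the gene, in RefSeq build GRCm38.p6. Capitals mark matches, on either strand, to 1 of 6 motifs: the CRE TGACGTCA, the AP-1 site TGAGTCA, the heat shock element core GAANNTTC, the ZEB E-box CACCTG, the palindromic glucocorticoid response element and the CCAAT box.
Dusp1 (chr17:26508423-26508722, minus strand): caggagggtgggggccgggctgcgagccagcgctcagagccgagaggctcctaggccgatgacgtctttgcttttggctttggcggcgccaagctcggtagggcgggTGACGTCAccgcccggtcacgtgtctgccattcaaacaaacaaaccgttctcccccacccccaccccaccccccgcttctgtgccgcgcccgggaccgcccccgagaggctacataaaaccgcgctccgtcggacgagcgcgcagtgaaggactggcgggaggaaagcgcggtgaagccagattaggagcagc
Bag3 (chr7:128523333-128523632, plus strand): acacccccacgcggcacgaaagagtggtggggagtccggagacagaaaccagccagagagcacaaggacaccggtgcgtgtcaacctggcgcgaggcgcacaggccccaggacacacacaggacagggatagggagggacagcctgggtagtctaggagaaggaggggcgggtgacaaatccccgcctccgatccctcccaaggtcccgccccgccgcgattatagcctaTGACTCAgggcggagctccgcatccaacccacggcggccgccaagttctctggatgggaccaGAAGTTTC
H1f2 (chr13:23738557-23738856, plus strand): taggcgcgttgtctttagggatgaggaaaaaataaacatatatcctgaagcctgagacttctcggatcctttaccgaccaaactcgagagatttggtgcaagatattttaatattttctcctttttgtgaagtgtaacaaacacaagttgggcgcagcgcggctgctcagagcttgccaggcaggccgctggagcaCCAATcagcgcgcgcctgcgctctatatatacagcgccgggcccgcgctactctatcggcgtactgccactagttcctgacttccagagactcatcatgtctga
The Dusp1 window held 1 CRE starting 143 bases before the start, a motif present in 1.79% of 32851 promoter windows of the same length. The Bag3 window held 1 AP-1 site (5.20% of windows) and 1 heat shock element core (7.86%). The H1f2 window held 1 CCAAT box, found in 37.4% of windows. The ZEB E-box, in 20.2% of windows, and the glucocorticoid response element, in 0.00913%, had no match in these 3 windows. A match describes letters only.

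A list of 28 immediate early and dissociation-stress genes had 11 members with all KO libraries below all WT libraries and 4 with all above. Over all genes the shares below and above were 5.45% and 5.58%. By edgeR, 14 members had an unadjusted p under 0.05, as did 4.44% of all genes. Without WT replicate 2, 14 lay below and 5 above, where 9.57% and 11.4% of all genes did. The median log2 fold change was −0.20, and −0.23 without that library. None passed the adjusted threshold in the fit of 6 libraries. Zfp36, which encodes an RNA-binding protein that speeds decay of cytokine mRNAs, had 6456, 6249 and 5804 CPM in KO, against 8857, 8434 and 8192 CPM in WT (−0.46 ± 0.08 on the log2 scale, adjusted p = 0.491 by edgeR and 0.0157 by DESeq2). Junb, an AP-1 subunit, had 6278, 6557 and 6416 CPM in KO, against 8179, 8276 and 8072 CPM in WT. In both genes the spread within a group was small next to the gap between groups. Fos, another AP-1 subunit, had 5447, 4810 and 5110 CPM in KO, against 6426, 6599 and 6248 CPM in WT. Nfkbia, the inhibitor of NF-kappa-B, had 1940, 2515 and 2419 CPM in KO, against 3033, 3543 and 3046 CPM in WT. Atf3, a stress-induced repressor, had 1575, 1650 and 1601 CPM in KO, against 2483, 1973 and 2106 CPM in WT. Fos, Nfkbia and Atf3 were each lower in all 3 KO libraries, with adjusted p between 0.653 and 0.800 by edgeR. Btg2, an antiproliferative gene, and Ier2 also had no overlap between groups (−0.33 ± 0.09 and −0.44 ± 0.13). The 4 members above WT in every KO library were the heat shock genes Hspa1a, Hspa1b, Dnajb1 and Hsp90aa1, so the list held genes on both sides.

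**Figure D2:**
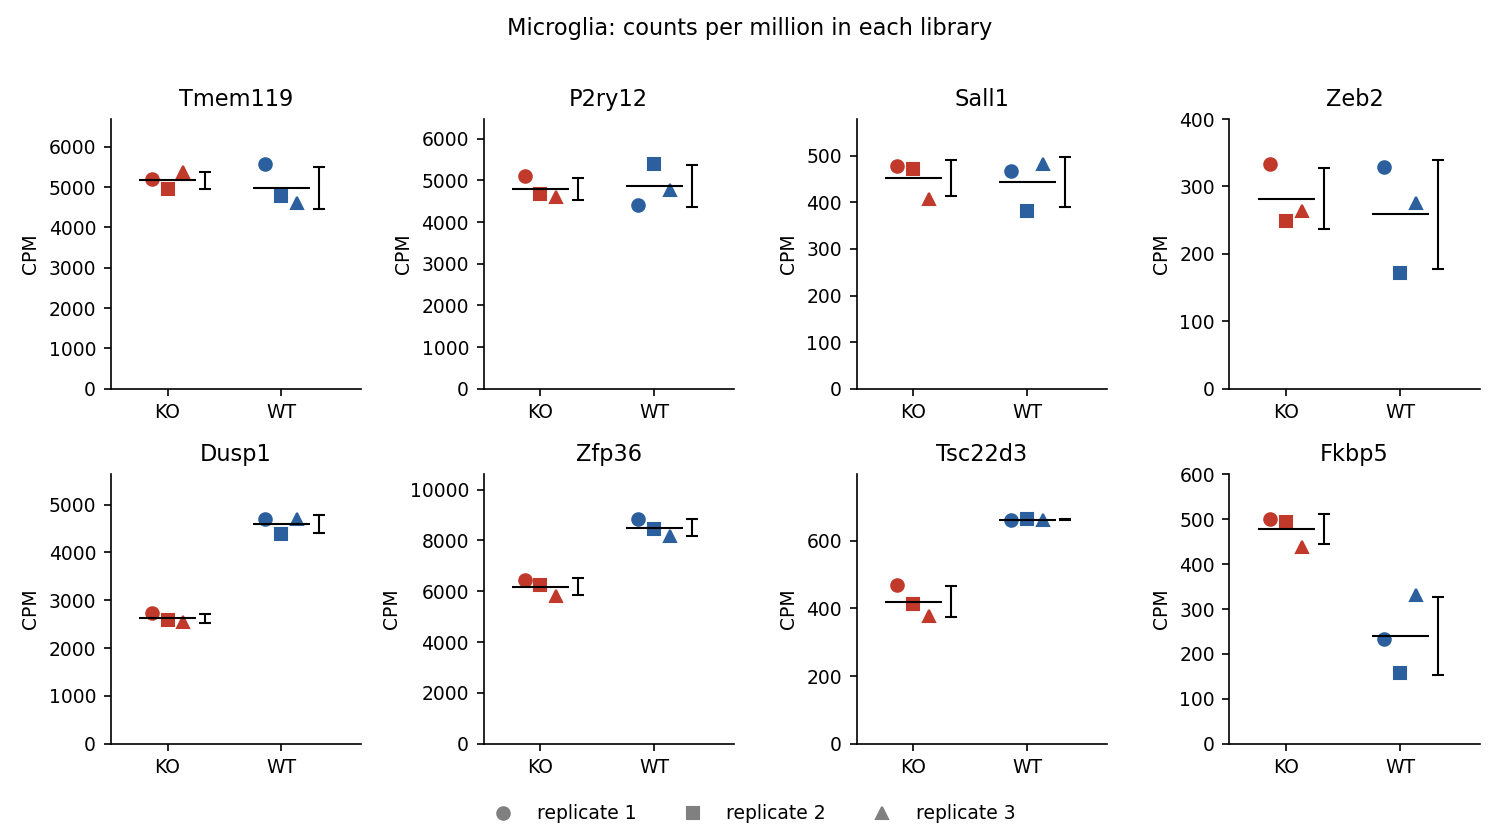
CPM (linear axes from 0) of 8 genes in KO and WT microglia. Symbols are libraries, horizontal lines are means and bars are ± SD (n = 3). Tmem119, P2ry12, Sall1 and Zeb2 overlap between groups, Dusp1, Zfp36 and Tsc22d3 are lower in every KO library, and Fkbp5 is higher in every KO library.

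Many cytosolic chaperone genes had higher values in KO libraries, though none was called by edgeR with the filter on low counts. This list and the next were drawn up after these values had been seen, so their counts describe the genes and support nothing. Of 28 chaperone and co-chaperone genes tested, 13 had all KO libraries above all WT libraries and 0 had all below (5.58% and 5.45% over all genes). Without WT replicate 2 these were 16 and 0, where the shares over all genes were 11.4% and 9.57%. Hspa8, the constitutive HSP70, had 4678, 4404 and 4455 CPM in KO, against 3110, 3048 and 3619 CPM in WT (0.47 ± 0.09, adjusted p = 0.491 by edgeR). Hsp90ab1, the constitutive HSP90, had 2233, 2070 and 2224 CPM in KO, against 1603, 1576 and 1610 CPM in WT (0.45 ± 0.09, adjusted p = 0.491 by edgeR). The co-chaperone Bag3 had 149, 144 and 162 CPM in KO, against 77.4, 76.3 and 103 CPM in WT. For each of these 3 genes the highest WT library stayed under the lowest KO library, and DESeq2 called them higher with adjusted p of 0.0329, 0.00784 and 0.00115. The nucleotide exchange factor Hsph1 had 439.7, 412 and 341 CPM in KO, against 184, 133 and 253 CPM in WT. Hspa1b had 12455, 14423 and 16393 CPM in KO, against 8608, 7816 and 11429 CPM in WT, and Hspa1a is a near-identical copy whose reads may be split between the pair. WT replicate 3 was the nearest WT library to KO for Hsph1, Hspa1b, Bag3 and Hspa8. Hspb8, a small heat shock protein gene, had 1.07, 0.941 and 1.35 CPM in KO and 0 counts in all 3 WT libraries, and edgeR called it higher with no filter on low counts (adjusted p = 0.0300). Summed over the list, the chaperones took 31839, 34417 and 37800 CPM in KO, against 21652, 20818 and 27485 CPM in WT.

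Most histone genes had lower values in KO libraries, and none was called by edgeR with the filter on low counts. With no such filter edgeR called 4 of them lower, H2bc4 (adjusted p = 0.0114), H1f2 (0.0300), H1f3 (0.0495) and H2ac6 (0.0495). Most replication-dependent histone mRNAs end without a poly(A) tail and are made in S phase, and their genes are near-identical copies, so reads may be shared among them. Of 25 tested, 18 had all KO libraries below all WT libraries and 0 had all above, against 5.45% and 5.58% of all genes. The median log2 fold change was −1.18 (−1.03 without WT replicate 2). The linker histone gene H1f2 had 175, 106 and 119 CPM in KO, against 340.3, 346 and 229 CPM in WT (−1.19 ± 0.23, adjusted p = 0.491 by edgeR and 0.000910 by DESeq2). H2bc4 had 62.8, 38.3 and 53.4 CPM in KO, against 134, 164 and 97.5 CPM in WT. H2ac6 had 6.50, 3.06 and 3.83 CPM in KO, against 14.6, 14.6 and 12.1 CPM in WT. For all 3 genes KO replicate 1 was the highest KO library and WT replicate 3 the lowest WT library. H1f0, a linker histone gene of non-dividing cells, had 80.3, 62.7 and 65.2 CPM in KO, against 127, 90.8 and 112 CPM in WT. The summed histone level was 453, 294 and 324 CPM in KO, against 837, 868 and 616 CPM in WT. Of 22 cell cycle genes tested, 1 had all KO libraries below WT and 0 above, and their summed level was 273, 277 and 278 CPM in KO, against 271, 308 and 287 CPM in WT.

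**Figure D3:**
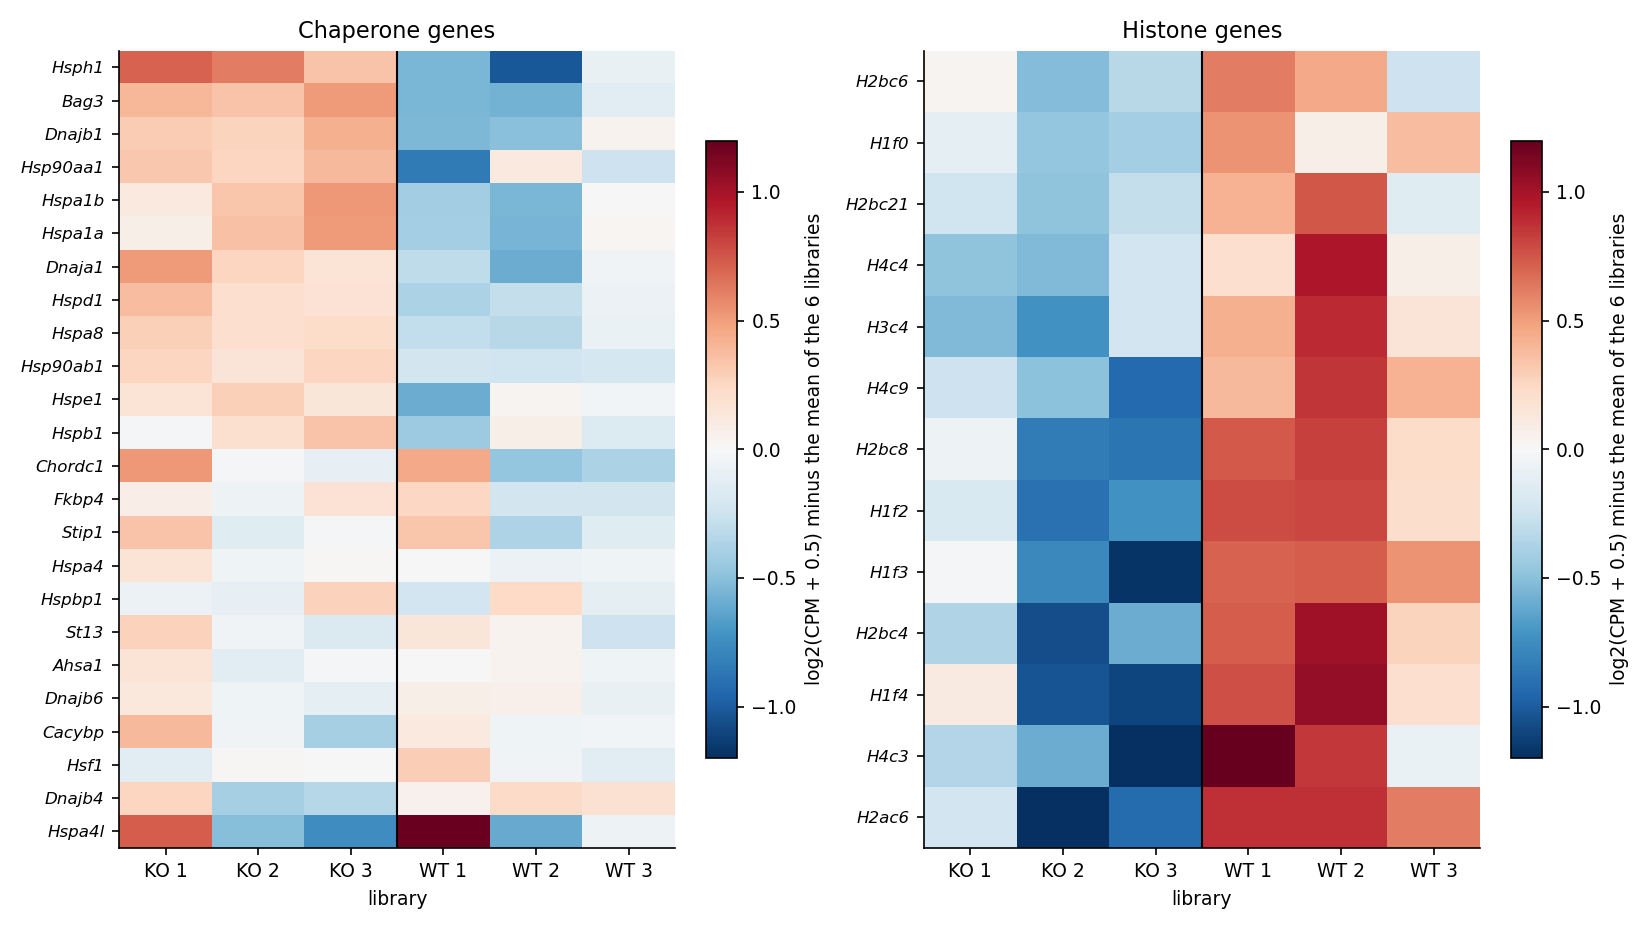
Heat maps of chaperone genes (left, 24 genes) and histone genes (right, 13 genes) with at least 5 CPM in the higher genotype. Columns are the 6 libraries, KO left of WT, and colour is log2(CPM + 0.5) minus the mean of the 6 libraries, red above and blue below. KO columns are red for the upper chaperone rows and blue for nearly all histone rows.

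Genes known to be induced by glucocorticoids lay on both sides. Of 18 tested in this list, which was also drawn up after values were seen, 6 had all KO libraries below all WT libraries and 4 had all above. Over all genes the shares were 5.45% and 5.58%. Dusp1 and Zfp36 stand on this list and on the immediate early list, and are counted in both. Tsc22d3, which encodes the glucocorticoid-induced leucine zipper protein GILZ, had 469.5, 414 and 377 CPM in KO, against 660.4, 666 and 662 CPM in WT (−0.66 ± 0.11, adjusted p = 0.491 by edgeR and 0.000343 by DESeq2). The kinase gene Sgk1 had 2780, 3007 and 2347 CPM in KO, against 3671, 3978 and 4126 CPM in WT (−0.53 ± 0.10, adjusted p = 0.491 by edgeR). Fkbp5, which encodes a co-chaperone of the glucocorticoid receptor, had 502, 494 and 439 CPM in KO, against 234, 157 and 331 CPM in WT (0.99 ± 0.25, adjusted p = 0.728 by edgeR and 0.0329 by DESeq2). Its WT libraries spread more than its KO libraries. Klf9, a Krüppel-like factor gene, had 4.05, 3.84 and 3.15 CPM in KO, against 1.90, 2.26 and 1.56 CPM in WT.

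Among inflammatory cytokines and chemokines, 6 of 23 tested genes had all KO libraries below WT, 2 had all above, and none was called. Shares over all genes were 5.45% below and 5.58% above. Ptgs2, the inducible cyclooxygenase, had 16.7, 13.4 and 13.2 CPM in KO, against 5.52, 7.82 and 6.76 CPM in WT (1.11 ± 0.22, adjusted p = 0.491 by edgeR and 0.00106 by DESeq2). The chemokine gene Ccl4 had 880.5, 987 and 943 CPM in KO, against 1205, 1430 and 1096 CPM in WT (−0.40 ± 0.12). Cxcl1 had 0.327, 0.416 and 0.634 CPM in KO and 0 counts in all 3 WT libraries.

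Of 28 myeloid transcription factor genes tested, 4 had all KO libraries below WT and 1 above, and none was called. For every list of this paragraph the shares over all genes were 5.58% above and 5.45% below. Cebpb, a C/EBP factor of inflammatory gene programmes, had 219, 299 and 288 CPM in KO, against 397, 400.3 and 373 CPM in WT (−0.53 ± 0.15). Id2, an inhibitor of E proteins, had 376, 375 and 353 CPM in KO, against 415, 509 and 467 CPM in WT. Both had groups apart, as did Cebpa and Batf3 (−0.41 ± 0.18 and −0.43 ± 0.19). In the TGF-beta list 2 of 22 were above and 1 below. Among 26 genes of disease-associated microglia, a state seen around lesions, 2 were above in every KO library and 0 below. A negative log2 fold change was found for 19 of the 26, against 9079 of all 17880 genes. The median was −0.14 (−0.05 without WT replicate 2). The 2 above were Spp1, encoding osteopontin, with 6.92, 13.4 and 8.19 CPM in KO, against 2.16, 5.45 and 4.91 CPM in WT, and the integrin gene Itgax, with 14.7, 16.6 and 12.7 CPM in KO, against 11.3, 12 and 6.82 CPM in WT. Of the apoptotic cell uptake and complement list, 4 of 26 were above and 1 below. Of 26 interferon-stimulated genes, 3 were above and 1 below, and the median log2 fold change was 0.05, or 0.33 without WT replicate 2.

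Some lists had no gene with groups apart: of 21 cholesterol synthesis genes and 19 class I MHC genes tested, 0 lay apart in either direction. Of 15 mitochondrial transcripts 0 lay apart with all libraries, and 7 were above in every KO library without WT replicate 2 (11.4% of all genes). Of the class II MHC genes 1 of 13 was below, of the lysosomal genes 2 of 27 were above, of the glycolysis genes 3 of 22 were above and 1 below, and of the LXR target and lipid storage genes 2 of 17 were above. Shares over all genes were 5.58% above and 5.45% below. The median log2 fold change of several lists moved when WT replicate 2 was left out. It went from −0.11 to 0.03 for class II MHC genes. For ependymal and choroid plexus markers it went from −0.20 to −0.65, and for erythroid markers from −0.22 to −0.64. For the 31 cytosolic ribosomal protein genes it was −0.25 with all libraries and 0.06 without that library. The 26 oxidative phosphorylation genes gave −0.25 and −0.01, and the 15 mitochondrial transcripts −0.29 and 0.19. The summed ribosomal protein level was 2209, 2334 and 2445 CPM in KO, against 2127, 3799 and 2307 CPM in WT.

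**Figure D4:**
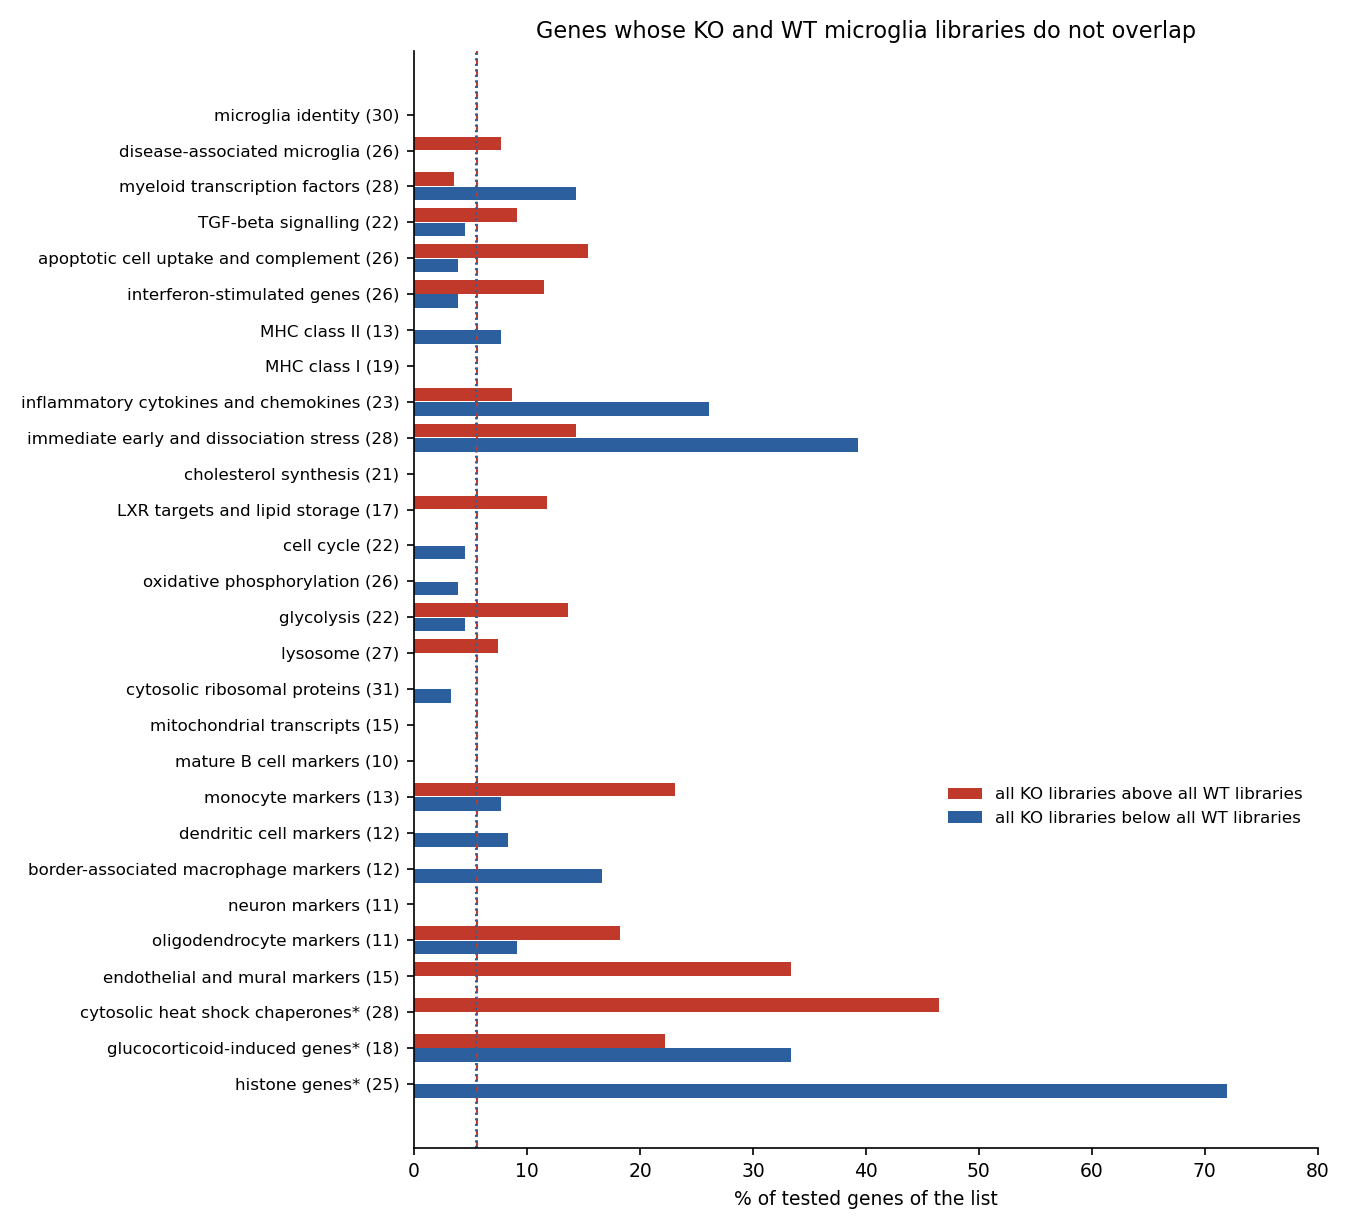
Share of the tested genes of each list (%, horizontal axis; number tested in brackets) with all KO libraries above all WT libraries (upper bar, red) or below (lower bar, blue), for lists with at least 10 genes tested. The dashed and dotted lines are the shares over all genes, 5.58% and 5.45%, and asterisks mark lists drawn up after values were seen; the histone, immediate early and chaperone lists stand farthest from these lines.

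Markers of other cells that brain suspensions can hold varied in level, and some differed between groups. Over the 6 libraries, dendritic cell markers summed to 389 to 563 CPM, astrocyte markers to 161 to 231 CPM and oligodendrocyte markers to 163 to 281 CPM. How much single genes add to these sums is not given here. In bulk samples, fewer cells of a type and less RNA per cell cannot be told apart. Of 15 endothelial and mural genes tested, 15 had a positive log2 fold change, as had 8801 of all 17880 genes. Of the 15, 5 had all KO libraries above WT and 0 below (5.58% and 5.45% over all genes). Their median was 0.99 (0.73 without WT replicate 2). Their summed level was 176, 193 and 228 CPM in KO, against 81.6, 98.6 and 166 CPM in WT, so every KO library was above every WT library, as for the chaperone sum. Whether this has a part in the chaperone difference was not tested. Flt1, a VEGF receptor gene, had 6.72, 8.96 and 6.38 CPM in KO, against 3.47, 1.95 and 1.66 CPM in WT. Tek, the angiopoietin receptor gene, had 5.69, 4.02 and 12.4 CPM in KO, against 0.0559, 0.382 and 1.62 CPM in WT. The endothelial tight junction gene Cldn5 had 7.25, 5.45 and 17.3 CPM in KO, against 0.410, 3.44 and 9.51 CPM in WT, with groups that overlapped. The pericyte channel subunit gene Abcc9, which was not on the list, had 7.52, 7.55 and 3.57 CPM in KO, against 0, 0.306 and 0.178 CPM in WT (adjusted p = 0.491 by edgeR and 9.44e-08 by DESeq2). With no filter on low counts, edgeR called Abcc9 higher (adjusted p = 0.00618).

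Neutrophil calprotectin genes stood at a few CPM in KO libraries and near 0 in WT. S100a8 had 2.67, 2.21 and 1.55 CPM in KO, against 0.0186, 0.115 and 0.0197 CPM in WT. S100a9 had 1.76, 2.82 and 2.20 CPM in KO, against 0.0186, 0.0764 and 0 CPM in WT. Both had an adjusted p of 0.491 by edgeR and were called higher by DESeq2. With no filter on low counts, edgeR called both higher (adjusted p = 0.0300 for S100a8 and 0.0222 for S100a9). The granule protein gene Ngp, which did not pass the filter on low counts, had 0.163, 4.11 and 5.43 CPM in KO, against 0, 0 and 0.0789 CPM in WT, and edgeR called it higher with no filter (adjusted p = 0.0300). KO replicates 2 and 3 held nearly all of its counts. The neutrophil-defining genes Ly6g and Elane did not exceed 0.199 and 0.0198 CPM in any library, and 3 of 6 tested genes of the neutrophil list, S100a8, S100a9 and Camp, had all KO libraries above WT. All 6, of 15 genes on the list, had a positive log2 fold change, with a median of 3.82. S100a8 and S100a9 passed the filter on low counts through their KO libraries alone. The shared sign and the median therefore follow in part from that filter. The summed level of that list was 788, 789.5 and 775 CPM in KO, against 868, 633 and 743 CPM in WT. Csf3r, the G-CSF receptor gene, which microglia also express, made up most of that sum, with 782, 773 and 758 CPM in KO, against 866, 632 and 743 CPM in WT.

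Markers of border-associated macrophages, which line vessels and meninges, gave a mixed picture. Siglec1, a sialic acid-binding receptor, had 0.309, 0.127 and 0.396 CPM in KO, against 1.98, 1.15 and 4.16 CPM in WT. Cd163, the haemoglobin scavenger receptor, had 0, 0.0724 and 0 CPM in KO, against 1.79, 1.01 and 0.276 CPM in WT. These were the 2 of 12 tested members with all KO libraries below WT, and 0 were above. Mrc1, the mannose receptor, had 40.9, 27.2 and 23.6 CPM in KO, against 16.4, 16.1 and 35.2 CPM in WT, and the list's summed level of 133, 117 and 116 CPM in KO overlapped that of WT, at 119, 102 and 141 CPM. Among oligodendrocyte-lineage genes, Cspg4, also a pericyte gene, had 3.32, 5.76 and 1.09 CPM in KO, against 0.0559, 0.0764 and 0.276 CPM in WT. EdgeR called it higher with no filter on low counts (adjusted p = 0.0300). Olig1, a transcription factor gene of that lineage, had 3.62, 1.43 and 0.357 CPM in KO, against 0.0186, 0.210 and 0.0197 CPM in WT (adjusted p = 0.0326 by DESeq2). These were the 2 of 11 tested with all KO libraries above WT, 1 was below, and the list's sum overlapped between groups. Of 8 astrocyte markers tested, 2 were above. Of 13 monocyte markers 3 were above and 1 below, of 12 dendritic cell markers 1 was below, and of 5 ependymal and choroid plexus markers and 6 erythroid markers 0 were apart. Shares over all genes were 5.58% above and 5.45% below. Neuron markers had 0 of 11 tested genes apart, and T and NK cell markers summed to 0.563, 0.615 and 2.22 CPM in KO, against 1.08, 4.01 and 1.52 CPM in WT.

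The remaining genes with the smallest unadjusted p were expressed at low levels. Kif26a, a kinesin-like gene, had 1.07, 1.56 and 0.971 CPM in KO, against 0.0373, 0.0191 and 0.0197 CPM in WT. Phf21b had 3.02, 2.66 and 3.37 CPM in KO, against 0.503, 0.688 and 0.749 CPM in WT. Ccn3 had 3.49, 1.01 and 1.55 CPM in KO and 0 counts in WT, and the connexin gene Gjc1 had 2.38, 1.05 and 1.21 CPM in KO, against 0.0373, 0 and 0 CPM in WT. In the other direction Lypd6 had 1.6, 0.615 and 1.55 CPM in KO, against 4.59, 10.9 and 13.6 CPM in WT. Slc22a15, a solute carrier gene, had 0.0727, 0.0724 and 0.119 CPM in KO, against 1.85, 2.18 and 0.888 CPM in WT. Pxylp1 and A530065N20Rik had 0 counts in all 3 KO libraries, against 0.391 to 1.32 CPM and 0.513 to 0.956 CPM in WT. All of these had an adjusted p of 0.491 by edgeR, and each was called by DESeq2. With no filter on low counts, edgeR called Ccn3 and Gjc1 higher (adjusted p = 0.00618 and 0.0492) and Lypd6 lower (0.0105).

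The last comparison asked whether the KO effect in microglia differed from the mean KO effect in alveolar, Kupffer and splenic macrophages. In a fit of all 24 libraries this difference was called for 32 of 24030 genes (0.133%), and 14 of the 32 had an adjusted p under 0.05 without WT replicate 2. Microglial groups overlapped in 12 of them. Of the 24 genes of the mature B cell list, 10 passed the filter on the 6 microglia libraries, and 5 of these were called. How many of the others were tested in the fit of 24 libraries was not counted. The heavy chain joining genes Ighj1 and Ighj3 and the lectin gene Siglecg, which are not on that list, were called too, Ighj3 and Siglecg with no call without WT replicate 2. Ighm, the immunoglobulin mu heavy chain gene, had 462, 599 and 619 CPM in KO microglia, against 527, 629.5 and 605 CPM in WT. Its log2 fold change in the fit of 24 libraries was −0.06 in microglia, −3.31 in alveolar macrophages, −2.59 in Kupffer cells and −3.58 in splenic macrophages, a difference of 3.10 ± 0.48 (adjusted p = 0.0148 by edgeR). Ighd had 13.7, 16.0 and 18.5 CPM in KO microglia, against 16.5, 8.94 and 19.7 CPM in WT (difference 6.05 ± 0.81, adjusted p = 0.00332 by edgeR). The whole list summed to 984, 1092 and 1135 CPM in KO microglia, against 1034, 1149 and 1110 CPM in WT, with groups that overlapped. Ighm and the adaptor gene Blnk, with 284 to 328 CPM in KO and 286 to 325 CPM in WT, made up most of that sum. In contrast, Ms4a1 reached at most 1.08 CPM, Pax5 0.0592 CPM and the kappa constant gene Igkc 0.0396 CPM in any of the 6 libraries. Ebf1, Cr2 and Cd79a, the other 3 called, stood at 3.38 CPM or less in all microglia libraries, and without WT replicate 2 the call was lost for Ebf1 and Cd79a (adjusted p = 0.0780 and 0.0526 by edgeR).

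Some of the other genes called in this comparison had microglial groups that did not overlap, though none was called by edgeR in the fit of 6 libraries. For Chn2 and Mras the microglial log2 fold changes were 0.27 and 0.19, against −6.76 and −9.33 in alveolar macrophages. Xdh, which encodes xanthine dehydrogenase, had 2.49, 1.27 and 2.83 CPM in KO microglia, against 0.261, 0.0382 and 0.0789 CPM in WT. It was named after its values were seen. Its difference from the other types was 3.99 ± 0.49 (adjusted p = 0.00157 by edgeR), with log2 fold changes of 0.40, 0.04 and −0.14 in alveolar, Kupffer and splenic macrophages. Gm1966 had 7.90, 7.82 and 5.41 CPM in KO microglia, against 1.49, 0.860 and 2.35 CPM in WT (difference 2.13 ± 0.35, adjusted p = 0.0205 by edgeR). Lrrc8c, a volume-regulated anion channel subunit gene, had 3.96, 5.38 and 6.32 CPM in KO microglia, against 0.652, 0.153 and 1.6 CPM in WT (difference 2.74 ± 0.50, adjusted p = 0.0344 by edgeR). Siglec1 and Slc22a15 differed in the other direction (−3.22 ± 0.55 and −3.81 ± 0.68), the second with no call without WT replicate 2 (adjusted p = 0.0644 by edgeR). Within that fit, which shares 1 estimate of spread over all groups, 9 genes were called higher and 10 lower in KO microglia, Xdh, Gm1966, Lrrc8c, Siglec1 and Slc22a15 among them, and 16 of the 19 stood under 5 CPM. Bmpr1a, a BMP receptor gene, had 18.4, 23.4 and 17.8 CPM in KO microglia, against 13.8, 16.0 and 15.9 CPM in WT. Its log2 fold change was 0.39 in microglia, 1.75 in alveolar macrophages, 0.72 in Kupffer cells and 2.69 in splenic macrophages (difference −1.33 ± 0.23, adjusted p = 0.0241 by edgeR, or 0.0526 without WT replicate 2).

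**Figure D5:**
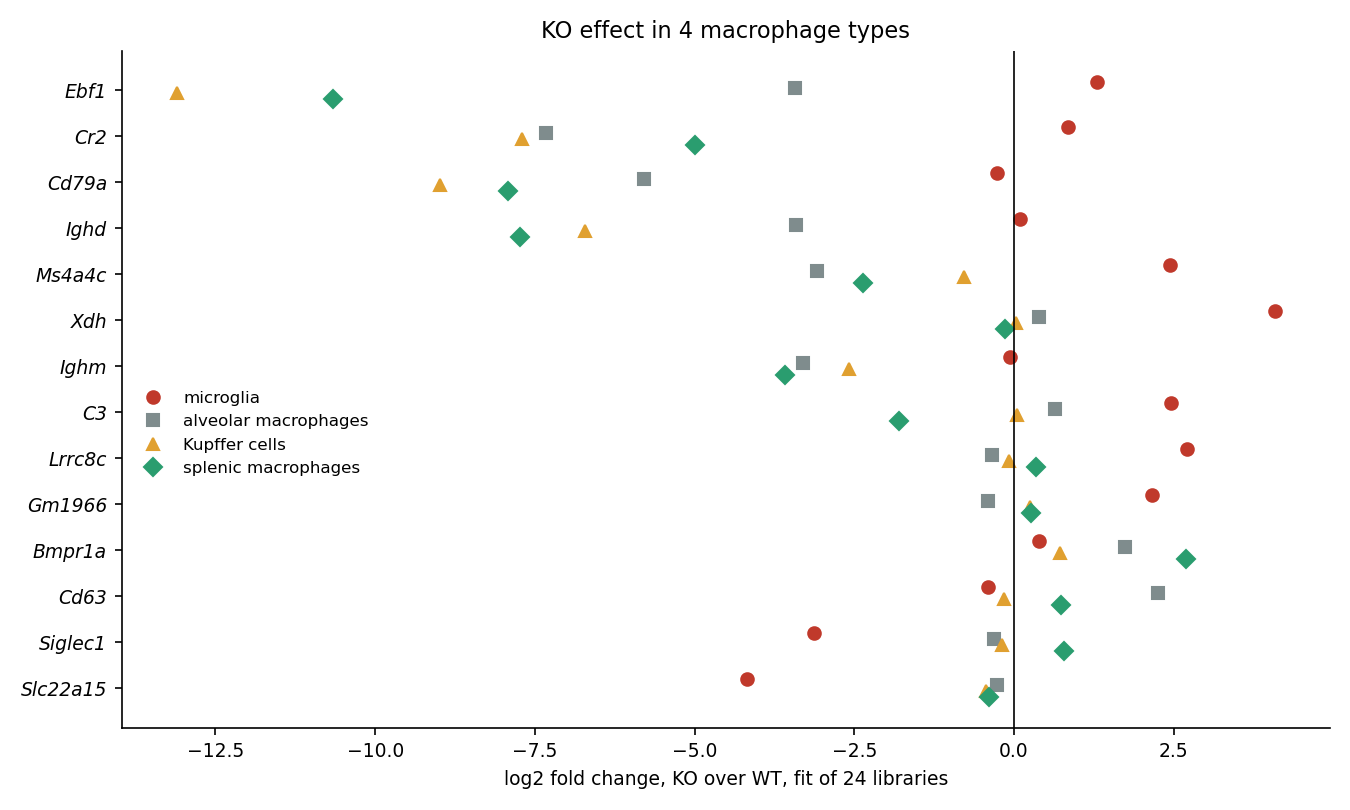
Log2 fold change of KO over WT (horizontal axis, fit of 24 libraries) in 4 macrophage types for 14 genes whose KO effect in microglia was called different from the mean of the other types. Red circles are microglia. For the B cell genes Ighm, Ighd and Cd79a the microglial point is near 0 and the other points are far to the left, while for Xdh, Lrrc8c and Gm1966 the microglial point is the one away from 0.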

How the data were processed

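The 6 microglia libraries (3 KO, 3 WT) were grouped by genotype labels, with replicate numbers from the titles. The members and gene lists were chosen with earlier results of these data known, and the chaperone, glucocorticoid and histone lists were added after values of this comparison had been seen. Gene counts deposited by the authors are whole numbers that are not normalized, and all tests were run on them. CPM values deposited by the authors differed from counts over library totals by at most 4.4e-11, and every CPM printed was recomputed from counts. TPM values deposited by the authors were used as given, and 4 splenic columns of that table, which sum above the scale of TPM and were listed as signal values deposited by the authors, were not used. Of 55774 rows, 287 repeated a gene identifier and only the first of each was kept, leaving 55487 genes; 0 value columns were unused. The submitters' processing notes name DRAGEN, STAR, Subread, featureCounts and Salmon with build mm10; their roles and settings are not given in the sources used here.

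Genes were filtered with filterByExpr (minimum count 10), scaled by TMM, and tested in R 4.3.3 with edgeR 4.0.16 (quasi-likelihood), at a Benjamini-Hochberg adjusted p under 0.05. DESeq2 1.42.0 and limma 3.58.1 gave alternatives. The comparison with other cell types used 1 fit of all 24 libraries and a contrast of the microglial KO effect with the mean of the other 3. Error terms are SE unless SD is stated, and intervals are 95%. On simulated counts for 17880 genes, 98 of 100 genes changed by 1.5 on the log2 scale and 100 of 100 changed by 3 were called, with 15 false calls. The changed genes were drawn from those with a high mean CPM. Counts were drawn independently, with no library set apart. No change under 1.5 on the log2 scale, such as that of Dusp1 (−0.81), was simulated. The simulation therefore says nothing of such changes, of genes at a few CPM, or of data with a library such as WT replicate 2. Named genes were Tmem119, P2ry12, Sall1, Zeb2, Zeb2os, Zeb1 and Maf, called genes, the 15 with the smallest unadjusted p, up to 4 per list with the smallest p, and the 12 in each direction (5 CPM or more) farthest off in WT replicate 2; others were chosen after their values were seen. Reads carried no molecular identifiers, so counts near 0 cover counting error only. An exact permutation test of 3 against 3 libraries cannot go below p = 0.1, so summed levels were not tested. Same-numbered KO and WT libraries did not deviate together (correlations 0.037, −0.024 and −0.026), so numbers were not taken as pairs. Alternatives were other scalings, filters, tools, a replicate block and leaving out each library. Sequences came from RefSeq (GRCm38.p6) and gene coordinates from GENCODE.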

Additional observations from a re-analysis of the deposited data

Results flagged for a closer look

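For 14 genes of the text, the lists or the naming rule, the KO effect in microglia differed from the mean KO effect in the other 3 macrophage types by a test of the difference itself (edgeR, fit of 24 libraries, adjusted p under 0.05). The values are differences of log2 fold changes, positive where the effect in microglia was the higher. B cell genes gave 3.10 for Ighm, 6.05 for Ighd, 7.30 for Cd79a, 7.52 for Cr2 and 10.4 for Ebf1, with the microglial groups overlapping for each. Genes with all KO microglia libraries above all WT gave 3.99 for Xdh, 2.13 for Gm1966, 2.74 for Lrrc8c and 2.84 for the complement gene C3. Within microglia C3 was not called (adjusted p = 0.0874 by edgeR, fit of 24 libraries), and its log2 fold change in splenic macrophages was −1.81. The monocyte gene Ms4a4c gave 4.52 and its microglial groups overlapped. Negative differences were −3.22 for Siglec1, −3.81 for Slc22a15, −1.33 for Bmpr1a and −1.36 for Cd63, a tetraspanin gene whose microglial groups overlapped. Without WT replicate 2, 7 of the 14 were no longer called, with adjusted p of 0.0526 for Cd79a, 0.0526 for Bmpr1a, 0.0644 for Slc22a15, 0.0780 for Ebf1, 0.141 for Cd63, 0.144 for Ms4a4c and 0.156 for C3. Groups of 3 libraries were too small for the test of a single outlying library.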

How the results depend on the processing

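Against 0 genes called by edgeR, 93 were called by DESeq2, 168 by DESeq2 without WT replicate 2, 1 by limma with quality weights, 13 with no filter on low counts and 19 in the fit of all 24 libraries; the cause was not tested. The count stayed at 0 with the replicate block, the other scalings and the filter of at least 1 CPM, and lay between 0 and 1 when each library was left out in turn, the 1 being Dusp1 without WT replicate 2. The listed genes called likewise numbered 0 to 1. With the replicate block, the 32 genes whose effect differed from the other cell types became 6; the labels do not pair replicates and same-numbered libraries did not deviate together. The sign of 6 uncalled fold changes turned. For P2ry12 it was 0.0115 with quality weights and 0.0486 with DESeq2 without WT replicate 2, and leaving out each library gave −0.0591 to 0.0493. Sall1 gave −0.0295 and −0.0865 in those fits and −0.0858 to 0.0943. Zeb2 gave −0.12 with DESeq2 without WT replicate 2 and −0.12 to 0.36. Ighd gave −0.0737 and −0.18 in the fits named for P2ry12 and −0.18 to 0.34, and Ighm −0.14 to 0.0704. Cd79a gave 1.16 with quality weights, 0.50 with the replicate block and −0.79 to 1.27. Values far under 1 CPM rest on few counts. Kif26a at 0.0191 CPM in WT replicate 2 held 1 count, while Hspb8 at 0.941 CPM in KO replicate 2 held 52.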
